A study of Mus musculus with 12 samples.

Results

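Gene expression changed differently in a Smarcd1 knockdown line and a scrambled-control line when R1 mouse embryonic stem cells (ESCs) were driven to differentiate. The quantity followed here is a difference of differences, computed for each gene on the log2 scale. The change of the KD1 knockdown cells (4 day differentiated minus undifferentiated) was taken first, and the change of the scrambled-control cells over the same step was subtracted from it. A value above 0 therefore means that the gene rose more, or fell less, in KD1 cells. It uses 10 of the 12 arrays of the series, chosen by sample title, and the 2 arrays of a second knockdown, KD2, which was measured undifferentiated, are in none of the 4 groups.

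The 4 groups were differentiated KD1 cells (4 arrays), differentiated scrambled cells (2 arrays), KD1 ESCs (2 arrays) and scrambled ESCs (2 arrays). All came from R1 cells, an established mouse ESC line. KD1 cells carried a Smarcd1 knockdown, and scrambled cells had been infected with a scrambled control. The labels speak of knockdown and control clones but do not say how many clones stand behind an array, so effects of the knockdown and of a clone cannot be told apart. Undifferentiated cells were kept on mitomycin-treated embryonic fibroblasts (MEFs, feeder cells) in serum with leukemia inhibitory factor (LIF). Differentiated cells had been grown for 4 day without LIF and with 1 µM retinoic acid. The arrays are labelled biological replicates with no word on how cultures were kept apart, so a p-value here reflects array-to-array spread alone, and that spread may be technical.

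Smarcd1 encodes BAF60a, a subunit of the BAF (SWI/SNF) chromatin remodelling complexes, which use ATP to move or eject nucleosomes and so open or close regulatory DNA. Retinoic acid binds nuclear receptors that switch on Hox genes and other regulators, and with LIF withdrawn it takes ESCs out of pluripotency into a mixture of neural, mesodermal and endodermal fates. Primitive endoderm, which gives rise to the extraembryonic (parietal and visceral) endoderm, is a fate that ESCs can also enter, under Gata4, Gata6 and the Sox17 and Sox7 factors.

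The targeted gene was read first. Smarcd1 read 6.36, 6.61, 6.50 and 6.44 on the 4 differentiated KD1 arrays, against 8.84 and 8.64 on the differentiated scrambled arrays. It read 7.75 and 7.78 on the KD1 ESC arrays, against 8.67 and 8.68 on the scrambled ESC arrays. KD1 arrays lay below scrambled arrays in both states, with no overlap, as the labels say. The deficit was 1.88-fold in ESCs (log2 difference -0.91, adjusted p = 0.00199, limma) and 4.80-fold after differentiation (log2 difference -2.26, adjusted p = 2.08e-07). Smarcd1 itself thus had a difference of differences of -1.35 ± 0.16 (SE, adjusted p = 0.000355), and in a fit that also held the KD2 arrays its adjusted p was 0.0851. Differentiated cells and ESCs are thus compared at unequal Smarcd1 deficits, and the part of that gap in the results was not tested.

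Array signals ran from 1.74 to 13.49 on the log2 scale, and pairs of arrays within a group correlated at 0.98 to 0.99 across genes. Array medians were 4.73 to 4.75 in differentiated KD1 cells, 4.74 to 4.80 in differentiated scrambled cells, 4.99 to 5.03 in KD1 ESCs and 4.95 in scrambled ESCs. Among differentiated KD1 arrays, replicates 1 and 2 stood apart from replicates 3 and 4 for some genes, such as Sox2 with 6.35 and 6.35 against 7.84 and 7.70. One scrambled ESC array also stood apart: replicate 1 read 8.90 for Cyp26a1, a retinoic acid target, where replicate 2 read 4.39. These examples were picked after their values were seen.

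Of 12905 genes tested, 2402 (18.6%) had a difference of differences past an adjusted p of 0.05 in limma. It was above 0 for 1325 of them (10.3%) and below 0 for 1077 (8.35%). The size reached 2-fold or more for 1151 genes, 4-fold or more for 233 and 8-fold or more for 44, and the median size among called genes was 0.98 log2 units. The median over all tested genes was -0.01. Without KD1 ESC replicate 2 the count was 1527, and without differentiated scrambled replicate 2 it was 1580. With the KD2 arrays in the fit it was 1030.

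Most of the program of differentiation was shared by the lines. Differentiation changed 8295 genes (64.3%) in KD1 cells and 7074 genes (54.8%) in scrambled cells, and it raised 36.8% of tested genes in KD1 cells and 31.9% in scrambled cells. In 5721 genes both changes were called, and 5523 of these, or 96.5%, went the same way. Across all tested genes the changes of the lines, which share no array, had a Pearson r of 0.785, with SDs of 1.03 log2 units in KD1 cells and 0.95 in scrambled cells. Genes are not independent replicates, so this r is a description.

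The called genes were sorted by which line's change passed the threshold. Genes with a call in KD1 cells alone are named gained, and there were 714 (5.53% of tested genes). Genes with a call in scrambled cells alone are named lost, and there were 508 (3.94%). Another 198 (1.53%) were called in both lines in opposite directions and are named reversed. The remaining classes moved the same way in both lines, 604 (4.68%) further in KD1 cells and 365 (2.83%) less far, and 13 (0.101%) passed in neither line. A change that missed the threshold in a line is not shown to be 0 there. Without KD1 ESC replicate 2 the gained count was 426 and the reversed count 127, without KD1 ESC replicate 1 the reversed count was 125, and without differentiated scrambled replicate 2 the lost count was 329.

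**Figure D1:**
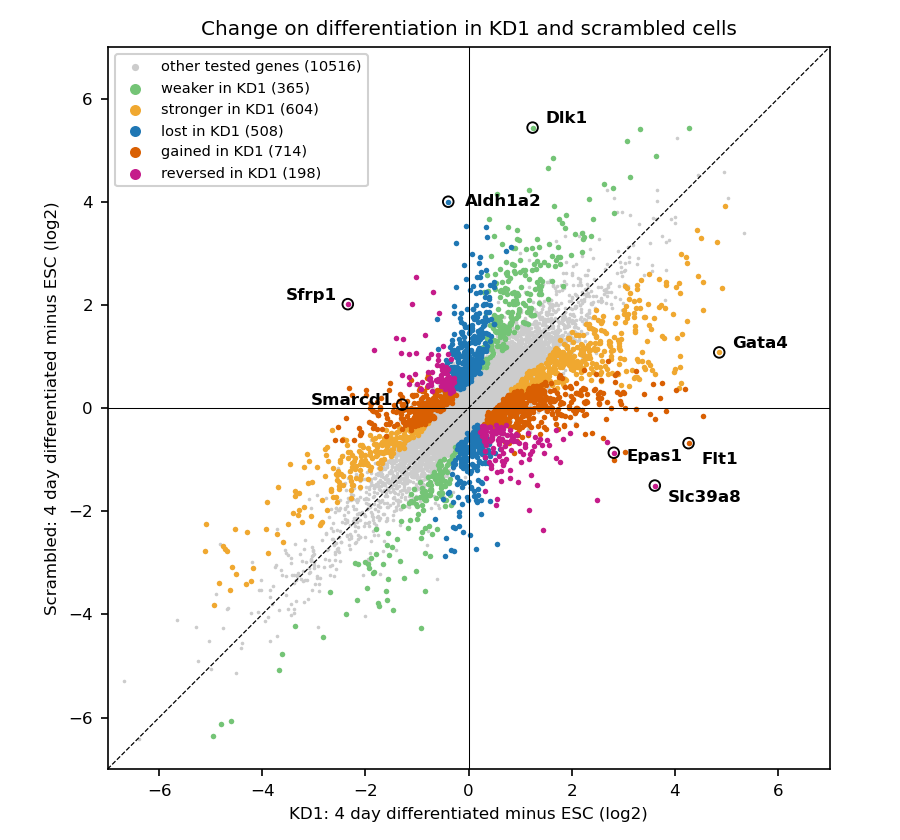
Each point is one of 12905 tested genes, with its change on differentiation in KD1 cells on the x axis and in scrambled cells on the y axis (both log2, 4 day differentiated minus ESC). Colours give the class, and the dashed line marks equal change. Among the circled genes, Slc39a8, Flt1, Aldh1a2 and Sfrp1 lie farthest from that line.

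Gained genes mostly rose: 459 of the 714 went up in KD1 cells, by a median of 1.01 log2 units against 0.02 in scrambled cells. The other 255 went down, with a median KD1 change of -0.88 against -0.01 in scrambled cells. Among lost genes, 302 had gone up in scrambled cells, where the median change was 1.01 against 0.01 in KD1 cells, and 206 had gone down. Reversed genes were 119 that fell in scrambled cells and rose in KD1 cells, and 79 with the opposite pattern.

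The same value can also be read as the KD1 minus scrambled difference after differentiation, minus that difference in ESCs. KD1 and scrambled cells differed at 4823 genes (37.4%) after differentiation and at 1055 genes (8.18%) in ESCs, where KD1 cells were lower at 4.97% of tested genes. Among the 2402 called genes the lines differed after differentiation alone in 1807, or 75.2%. They differed in ESCs alone in 264, in both states in 171, of which 93 were of opposite sign, and in neither in 160. The count in ESCs ranged from 450 to 1180 when 1 array was left out, and was 450 without KD1 ESC replicate 1, 493 without KD1 ESC replicate 2 and 456 without scrambled ESC replicate 2. A call in differentiated cells alone does not show that the lines were alike in ESCs.

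**Figure D2:**
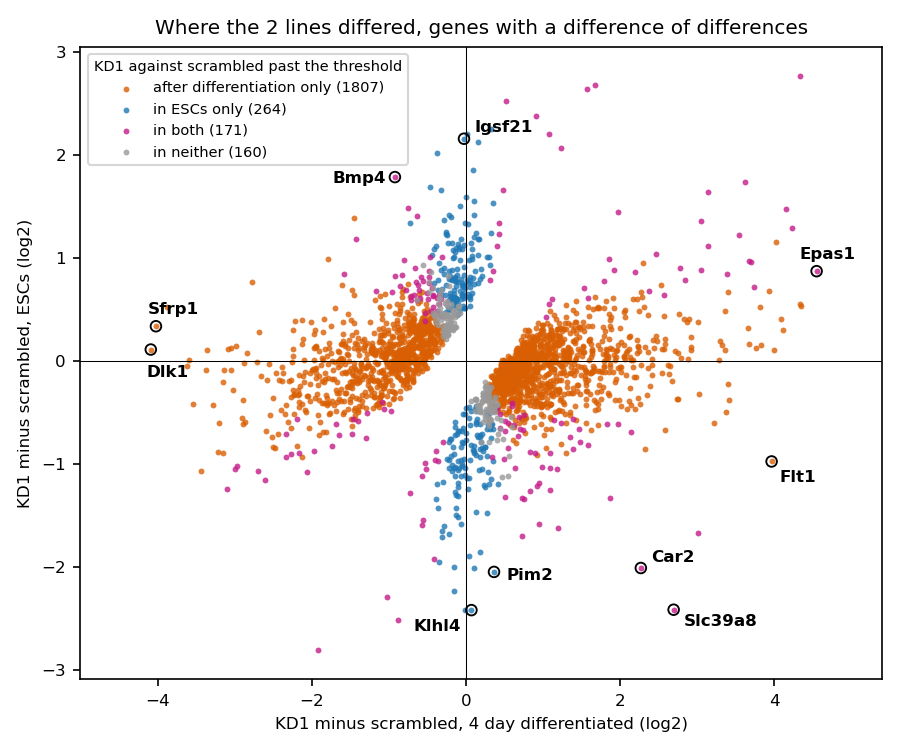
Each point is one of the 2402 called genes, with the KD1 minus scrambled difference in differentiated cells on the x axis and in ESCs on the y axis (both log2). Orange points, 1807 genes, lie along the horizontal axis because the lines differed past the threshold only after differentiation, and Slc39a8 and Car2 lie at lower right because the lines differed in both states with opposite sign.

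Slc39a8, which encodes the zinc and manganese importer ZIP8, had the largest difference of differences of the genes named here. It read 8.67, 8.67, 8.67 and 8.68 on the differentiated KD1 arrays, against 6.15 and 5.80 on the differentiated scrambled arrays. In ESCs it read 4.99 and 5.13 on the KD1 arrays, against 7.34 and 7.61 on the scrambled ESC arrays. The lines thus changed places, with no overlap in either state. Slc39a8 rose 12.2-fold in KD1 cells (log2 change 3.61) and fell 2.83-fold in scrambled cells (log2 change -1.50). The difference of differences was 5.11 ± 0.19 (SE, adjusted p = 4.06e-07).

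Slc39a8 is printed with its promoter because it is the gene that reversed most. RefSeq, on build GRCm38.p6, gives it 2 windows of 300 bases, at chr3:135825029-135825328 and chr3:135825407-135825706, both on the plus strand. Capitals mark matches, on either strand, to the GATA factor word AGATAA, to its variants with a changed end (TGATAA is one, AGATAG another, and TGATAG has both), and to AGGTCA, the half-site word of nuclear receptors such as the retinoic acid receptors. The first window held 1 AGGTCA match and no GATA word, and the second held 1 of each.
Slc39a8 first window: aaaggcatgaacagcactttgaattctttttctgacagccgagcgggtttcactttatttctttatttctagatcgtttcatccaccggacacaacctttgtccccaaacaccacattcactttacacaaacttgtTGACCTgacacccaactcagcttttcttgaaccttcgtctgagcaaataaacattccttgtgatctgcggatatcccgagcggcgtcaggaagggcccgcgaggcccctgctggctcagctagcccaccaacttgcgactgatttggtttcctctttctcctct
Slc39a8 second window: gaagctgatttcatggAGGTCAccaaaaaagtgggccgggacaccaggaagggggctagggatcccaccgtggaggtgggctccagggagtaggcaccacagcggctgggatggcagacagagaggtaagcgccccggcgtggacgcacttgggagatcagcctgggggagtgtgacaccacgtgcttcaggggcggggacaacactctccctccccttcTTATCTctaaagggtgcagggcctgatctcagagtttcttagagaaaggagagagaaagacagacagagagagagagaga
Over all 32851 promoter windows, 29.8% held a GATA word and 16.3% held AGGTCA. Over the 10 classes by direction the share with a GATA word ran from 9.46% to 25.1%, and the share with AGGTCA from 10.0% to 19.2%. All windows also cover genes not tested here, so they are no matched background for the classes. Whether a class lacks or favours a word was not tested, and the smallest class had 74 windows. A match describes the letters and is not a binding site. Windows were found for 1887 of the 2402 called genes.

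No other zinc gene came near Slc39a8. Of 26 tested zinc transporters and metallothioneins, 6 were called above 0 and none below 0, against 10.3% and 8.35% of all tested genes. Their median difference of differences was 0.26, against -0.01 over all tested genes. After Slc39a8 came Slc30a4, a zinc exporter of vesicles, at 1.59 ± 0.24 (SE). Slc39a14, which encodes ZIP14, the transporter closest to ZIP8, changed by -2.27 in KD1 cells and -2.52 in scrambled cells, and its difference of 0.25 ± 0.31 (SE) was not past the threshold.

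Car2, a carbonic anhydrase, showed the same crossing as Slc39a8. It read 9.07, 9.37, 9.49 and 9.54 on the differentiated KD1 arrays, against 7.11 and 7.08 on the differentiated scrambled arrays, and 6.90 and 6.83 on the KD1 ESC arrays, against 8.74 and 9.02 on the scrambled ESC arrays. The difference of differences was 4.28 ± 0.21 (SE, adjusted p = 2.32e-06). Serpinb6c, a serine protease inhibitor, and Retreg1, a receptor for autophagy of the endoplasmic reticulum, also fell in scrambled cells and rose in KD1 cells, with values of 3.80 ± 0.27 and 3.34 ± 0.26 (SE). Unlike Slc39a8 and Car2, they had no called difference between the lines in ESCs.

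Flt1, the receptor VEGFR1 for vascular endothelial growth factor, led the gained genes. It read 9.83, 9.98, 9.38 and 9.39 on the differentiated KD1 arrays, against 5.87 and 5.48 on the differentiated scrambled arrays. KD1 ESCs read 5.48 and 5.28, and scrambled ESCs read 7.08 and 5.63. Only the differentiated KD1 arrays were high, and the scrambled ESC arrays disagreed by more than a log2 unit. Flt1 rose 19.2-fold in KD1 cells, while its scrambled change of -0.68 ± 0.38 (SE) was not called. The difference of differences was 4.95 ± 0.50 (SE, adjusted p = 0.000137), and 4.22 without scrambled ESC replicate 1. Its promoter window, chr5:147725962-147726261 on the minus strand, held neither a GATA word nor AGGTCA.

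Of 8 endothelial markers, Cdh5, Tie1 and Emcn stayed below the intensity filter on every array, and of the 5 tested, Tek was above 0, Kdr below 0 and Pecam1, Esam and Sox18 were not called. The mean log2 signal of the 8 was 4.24 to 4.51 on the differentiated KD1 arrays, against 4.38 to 4.51 on the differentiated scrambled arrays, and 5.18 to 5.19 in KD1 ESCs, against 4.88 to 5.01 in scrambled ESCs. Kdr, the other main VEGF receptor, had a difference of differences of -1.14 ± 0.25 (SE), and Vegfa one of 0.10 ± 0.32 (SE), not past the threshold. Of 26 tested endothelial and VEGF genes, 3 were called above 0 (Flt1, Sox17 and Tek) and 7 below. Over all tested genes the shares were 10.3% and 8.35%, so the count above 0 is near the share. The list's median was -0.31, or -0.54 without KD1 ESC replicate 2. Tek, at 1.27 ± 0.37 (SE), lost its call without any of 5 arrays, with an adjusted p of up to 0.137 without differentiated scrambled replicate 2. Angpt1, the ligand of Tek, was among the lost genes, at -2.39 ± 0.21 (SE). It read above the intensity filter on the differentiated scrambled arrays alone.

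Chst15, which sulfates chondroitin, followed Flt1 among gained genes. It read 9.71, 9.96, 10.10 and 10.16 on the differentiated KD1 arrays, against 7.10 and 6.83 on the differentiated scrambled arrays, and 5.41 and 5.47 in KD1 ESCs, against 6.54 and 7.69 in scrambled ESCs. Its difference of differences was 4.69 ± 0.39 (SE, adjusted p = 4.97e-05). Here KD1 cells were lower in ESCs and higher after differentiation. Adamts9, a secreted metalloprotease of the extracellular matrix, was gained with 3.87 ± 0.60 (SE), or 3.20 without scrambled ESC replicate 1, and Pga5, a pepsinogen, with 3.82 ± 0.57 (SE).

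**Figure D3:**
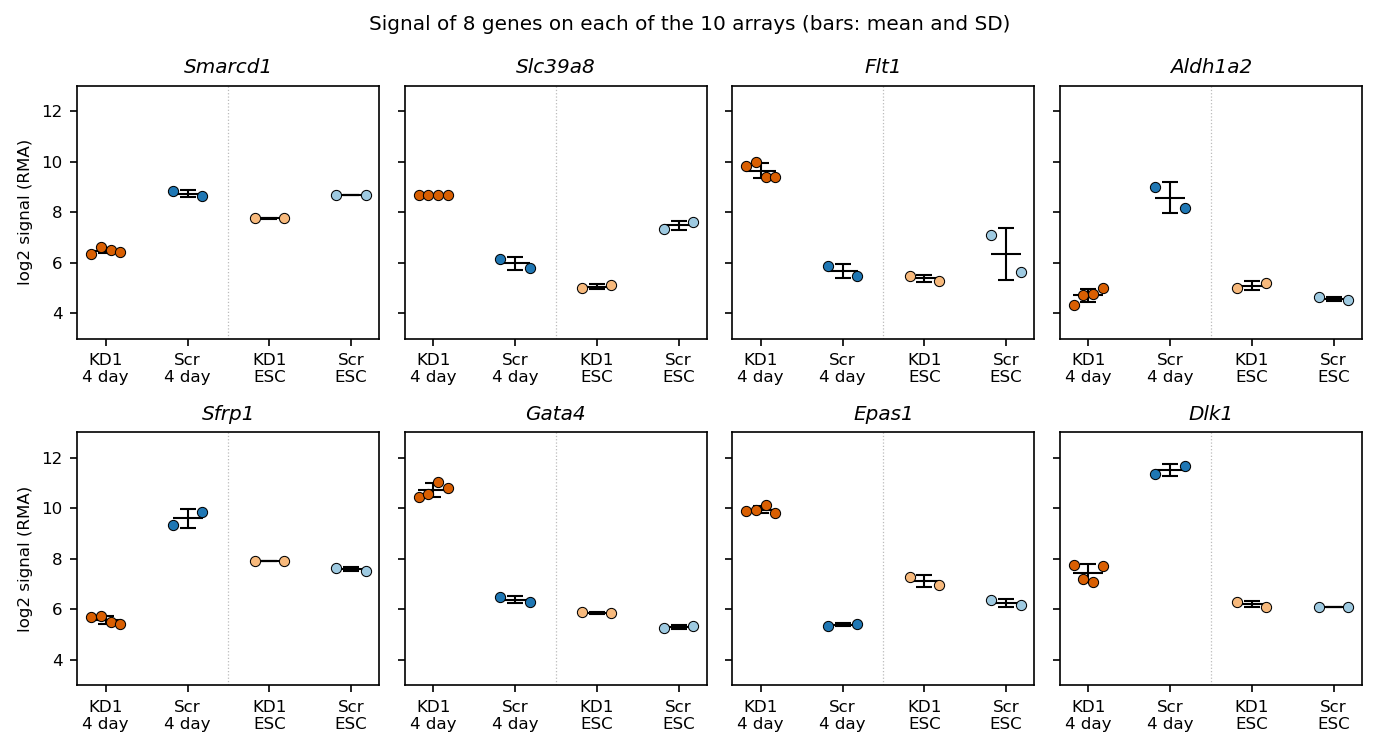
Log2 signal of 8 genes on each of the 10 arrays, with points for arrays and bars for the group mean and SD. Slc39a8 is at 8.67 to 8.68 on all 4 differentiated KD1 arrays and at 4.99 and 5.13 in KD1 ESCs, while Aldh1a2 and Dlk1 are highest on the differentiated scrambled arrays.

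Many genes of extraembryonic endoderm rose further in KD1 cells than in scrambled cells. Of 28 tested list members, 18 had a difference of differences above 0 (against 10.3% of all tested genes) and 1 below 0, with a median of 1.66 against -0.01. All 18 rose in KD1 cells: 7 were gained and 11 were stronger. The exception was Amn, a receptor subunit of visceral endoderm, at -0.78 ± 0.20 (SE), whose call was lost without any of 5 arrays (adjusted p = 0.0564 to 0.0746).

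Gata4, a master regulator of primitive endoderm, was high on the differentiated KD1 arrays alone. It read 10.45, 10.57, 11.05 and 10.82 on the differentiated KD1 arrays, against 6.47 and 6.30 on the differentiated scrambled arrays. KD1 ESCs read 5.88 and 5.84, and scrambled ESCs read 5.25 and 5.36. Gata4 rose 29.0-fold in KD1 cells and 2.11-fold in scrambled cells, and the difference of differences was 3.78 ± 0.24 (SE, adjusted p = 1.08e-05). The lines did not differ past the threshold in ESCs (adjusted p = 0.0855).

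Sox7 read 8.58, 8.69, 10.32 and 10.01 on the differentiated KD1 arrays, against 5.02 and 5.08 on the differentiated scrambled arrays, and 5.16 and 5.25 in KD1 ESCs, against 4.88 and 4.47 in scrambled ESCs. Its difference of differences was 3.82 ± 0.65 (SE, adjusted p = 0.00282). It was 3.06 from differentiated KD1 replicates 1 and 2 and 4.58 from replicates 3 and 4, both past the threshold. Gata4 and Sox7 lie on chromosome 14, whose 448 tested genes had a median of 0.02 with replicates 1 and 2 and 0.37 with replicates 3 and 4; that shift's part in the Sox7 result was not tested.

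Sox17 and Foxa2, further endoderm transcription factors, had values of 3.10 ± 0.27 and 2.81 ± 0.32 (SE). Sox17 read 8.56 to 9.23 on the differentiated KD1 arrays, against 5.88 and 5.46 on the differentiated scrambled arrays. Both factors were at 5.35 or below on every ESC array, and neither differed between the lines in ESCs past the threshold.

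Not all endoderm genes followed. Gata6 read 10.70, 10.83, 10.95 and 10.94 on the differentiated KD1 arrays, against 8.73 and 9.15 on the differentiated scrambled arrays, and 6.91 and 6.95 in KD1 ESCs, against 5.77 and 4.76 in scrambled ESCs. It was higher in KD1 cells in both states, and it rose by 3.92 log2 units in KD1 cells and 3.67 in scrambled cells. Its difference of differences was 0.25 ± 0.35 (SE, adjusted p = 0.659). The scrambled ESC arrays disagreed for Gata6, whose value was -0.25 without scrambled ESC replicate 1 and 0.76 without scrambled ESC replicate 2. Dab2, an endocytic adaptor of endoderm, had a similar layout, with -0.36 ± 0.27 (SE) and called differences between the lines of 1.69 after differentiation and 2.05 in ESCs. For Gata6 and Dab2 the lines were already apart before retinoic acid, whereas for Gata4, Sox17 and Sox7 no difference in ESCs was called.

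Lama1, Col4a1 and Col4a2 were named after their values were seen, and they and the laminin genes beside them are not a list that was tested. Such chains build the basement membrane that parietal endoderm secretes. Lama1, a laminin chain, read 12.04, 12.32, 12.55 and 12.44 on the differentiated KD1 arrays, against 8.31 and 8.05 on the differentiated scrambled arrays, and 8.73 and 8.90 in KD1 ESCs, against 7.83 and 6.86 in scrambled ESCs. Its difference of differences was 2.68 ± 0.35 (SE). Lamc1 and Lamb1, the partner laminin chains, were gained, at 2.87 ± 0.27 and 2.23 ± 0.22 (SE).

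Col4a1 and Col4a2, which encode the 2 chains of the main type IV collagen, moved together. Col4a1 read 11.36, 11.59, 11.75 and 11.53 on the differentiated KD1 arrays, against 7.97 and 7.81 on the differentiated scrambled arrays. Its difference of differences was 2.70 ± 0.20 and that of Col4a2 was 2.55 ± 0.17 (SE). Both were also higher in KD1 ESCs than in scrambled ESCs, by 0.97 and 0.85 log2 units. The genes lie head to head on chromosome 8, and their promoter windows, chr8:11312777-11313076 on the minus strand and chr8:11312555-11312854 on the plus strand of GRCm38.p6, share 78 bases. They are printed, each in its own direction of transcription, with the shared bases in capitals. Neither held a GATA word or AGGTCA.
Col4a1: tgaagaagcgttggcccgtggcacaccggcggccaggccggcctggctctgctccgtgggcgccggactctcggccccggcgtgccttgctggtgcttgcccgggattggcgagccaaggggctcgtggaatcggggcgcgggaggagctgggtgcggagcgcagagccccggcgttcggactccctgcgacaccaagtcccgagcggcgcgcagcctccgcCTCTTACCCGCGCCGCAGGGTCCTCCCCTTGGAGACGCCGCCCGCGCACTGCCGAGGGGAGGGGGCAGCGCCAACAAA
Col4a2: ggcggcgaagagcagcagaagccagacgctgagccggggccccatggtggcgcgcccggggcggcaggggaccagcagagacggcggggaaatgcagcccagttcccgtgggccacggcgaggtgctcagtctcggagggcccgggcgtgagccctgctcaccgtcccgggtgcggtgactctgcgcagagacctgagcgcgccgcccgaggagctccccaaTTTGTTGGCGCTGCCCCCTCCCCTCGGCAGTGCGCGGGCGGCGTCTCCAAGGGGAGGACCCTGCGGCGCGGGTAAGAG
Chromosome 8 as a whole (708 tested genes) was lower in KD1 cells by a median of 0.31 log2 units after differentiation and 0.30 in ESCs, which leaves a median difference of differences of -0.05.

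Secreted factors were among the strongest gained genes. Fst, which encodes the activin antagonist follistatin, read 11.12, 11.30, 11.88 and 11.78 on the differentiated KD1 arrays, against 7.44 and 7.60 on the differentiated scrambled arrays, 7.90 and 7.47 in KD1 ESCs, and 7.78 and 7.38 in scrambled ESCs. The other 3 groups overlapped each other, and the difference of differences was 3.90 ± 0.34 (SE, adjusted p = 5.56e-05). Rbp4, the retinol carrier made by visceral endoderm, was gained at 3.27 ± 0.26 (SE), and Bmp2, a ligand of the bone morphogenetic protein (BMP) family, at 3.12 ± 0.46 (SE). Frzb, a secreted Wnt antagonist, was gained at 3.82 ± 0.35 (SE). Without the differentiated KD1 arrays Frzb would not have passed the intensity filter, so its call is not separate support.

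Markers of extraembryonic endoderm were also higher as a mean. The mean log2 signal of 10 extraembryonic endoderm markers was 8.98 to 9.30 on the differentiated KD1 arrays, against 6.52 to 6.66 on the differentiated scrambled arrays, and 6.08 to 6.12 in KD1 ESCs, against 5.01 to 5.11 in scrambled ESCs. Afp, of visceral endoderm, stayed below the intensity filter on every array. In these bulk samples more cells of a type and more RNA per cell cannot be told apart.

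**Figure D4:**
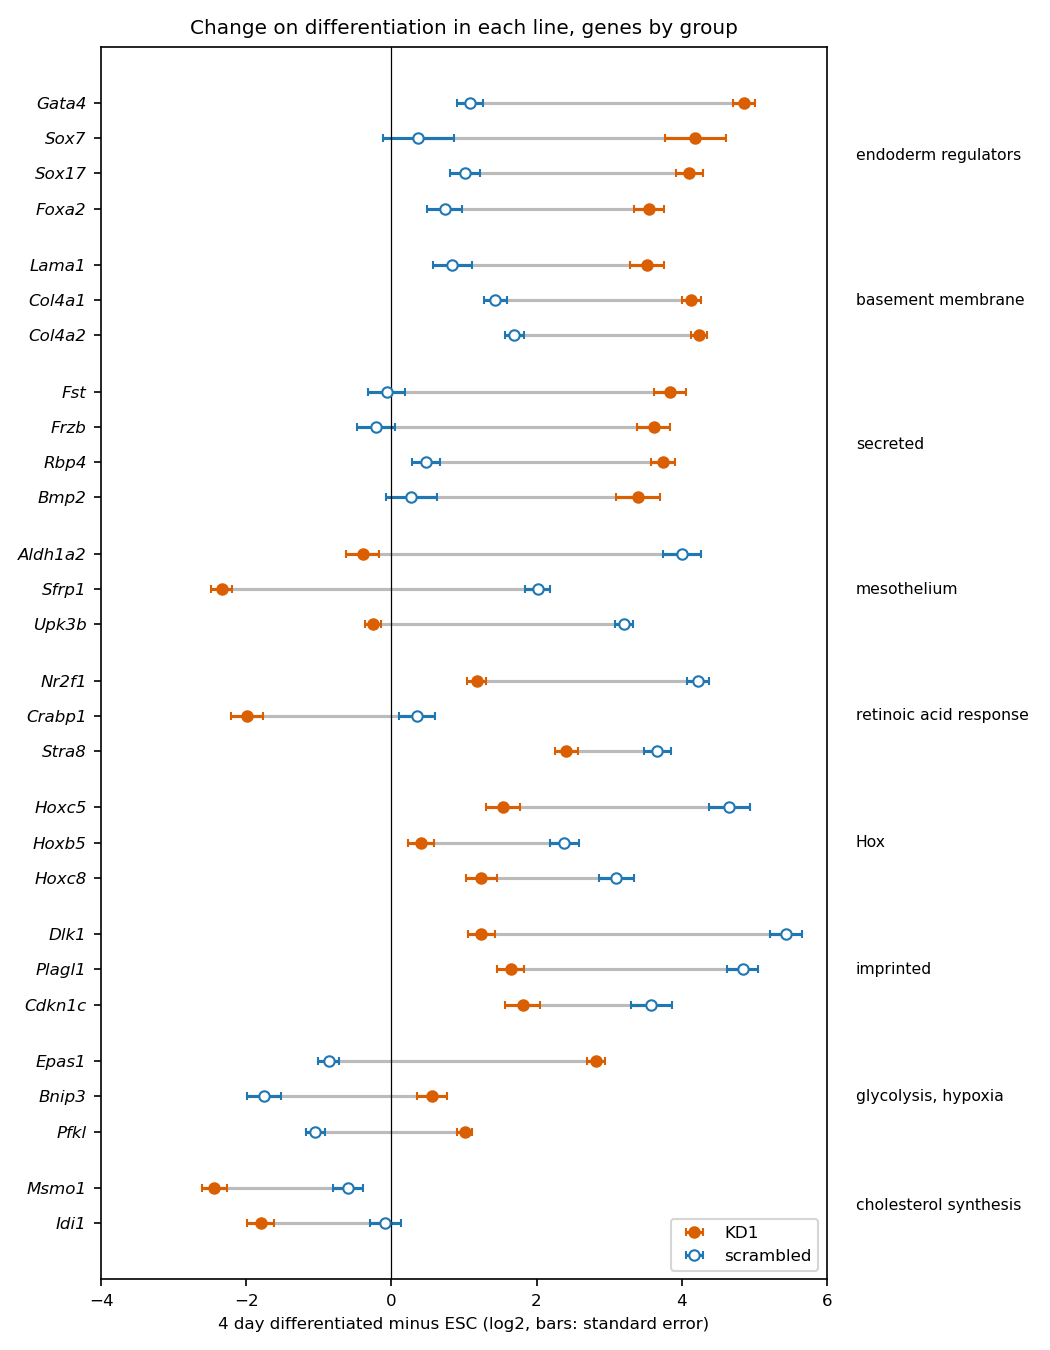
Change on differentiation of 28 genes in KD1 cells (filled orange) and scrambled cells (open blue), in log2 units with standard errors from the limma fit. Endoderm and basement membrane genes lie farther right in KD1 cells, and mesothelial, Hox, retinoic acid and imprinted genes lie farther right in scrambled cells.

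Aldh1a2, which makes retinoic acid from retinaldehyde and marks mesothelium and other mesoderm, led the lost genes. It read 4.33, 4.73, 4.77 and 4.99 on the differentiated KD1 arrays, against 9.01 and 8.15 on the differentiated scrambled arrays. KD1 ESCs read 4.98 and 5.21, and scrambled ESCs read 4.64 and 4.52. Only the differentiated scrambled arrays were high. Aldh1a2 rose 16.0-fold in scrambled cells, while its KD1 change of -0.39 ± 0.23 (SE) was not called. The difference of differences was -4.39 ± 0.35 (SE, adjusted p = 3.35e-05). Its promoter window, chr9:71215539-71215838 on the plus strand, held neither motif.

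Sfrp1, a secreted Wnt antagonist, was reversed in the opposite sense to Slc39a8. It read 5.68, 5.75, 5.48 and 5.43 on the differentiated KD1 arrays, against 9.34 and 9.87 on the differentiated scrambled arrays. ESCs lay between them, at 7.92 and 7.93 in KD1 cells and 7.65 and 7.53 in scrambled cells. The gene fell 5.07-fold in KD1 cells and rose 4.04-fold in scrambled cells, for a difference of differences of -4.36 ± 0.23 (SE, adjusted p = 2.53e-06). The lines did not differ past the threshold in ESCs (adjusted p = 0.284).

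Other mesothelial genes went with Aldh1a2 and Sfrp1. Upk3b, a uroplakin of mesothelial cells, read 4.12, 4.00, 3.88 and 4.14 on the differentiated KD1 arrays, against 7.43 and 7.35 on the differentiated scrambled arrays, 4.34 and 4.23 in KD1 ESCs, and 4.26 and 4.10 in scrambled ESCs. It was lost, at -3.46 ± 0.17 (SE, adjusted p = 1.97e-06). Only the differentiated scrambled arrays took Upk3b past the intensity filter (log2 4.55), so its p-value is not separate support. Bnc1, a mesothelial zinc finger protein, was lost at -2.86 ± 0.21, and Wt1, a regulator of the coelomic lining, rose less in KD1 cells, at -1.89 ± 0.30 (SE). Of 19 tested list members, 9 were below 0 (against 8.35% of all tested genes) and 3 above, with a median of -1.14. Those 3, Gata4 and the keratins Krt8 and Krt18, are also on the endoderm list. Krt8 and Krt18 read higher on scrambled ESC replicate 1 than on replicate 2, by more than a log2 unit, and without replicate 1 the value of Krt8 was 1.03, against 1.66 with it, and that of Krt18 was 1.10 (adjusted p = 0.0716), against 1.60 with it. The median was -0.68 without differentiated scrambled replicate 2, and -0.87 without KD1 ESC replicate 1.

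Markers of feeder fibroblasts were, as a mean, lower in KD1 cells in both states. Their mean log2 signal over 10 markers was 5.56 to 6.05 on the differentiated KD1 arrays, against 6.51 to 6.79 on the differentiated scrambled arrays, and 5.61 to 6.43 in KD1 ESCs, against 6.50 to 6.51 in scrambled ESCs. After differentiation 5 of 9 tested markers were lower in KD1 cells and none higher, against 18.8% and 18.6% of all tested genes. A difference of differences was called for 1 of 9, against 18.6% of all tested genes. That count is no result about the markers. Lum stayed below the filter on every array. The part of feeder cells in the mesothelial result was not tested.

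Of 23 tested mesoderm genes, 9 were called below 0, against 8.35% of all tested genes, 1 above and 13 not called, with a median of -0.43, or -0.25 without scrambled ESC replicate 1. Foxc2, a forkhead factor of mesoderm, read 3.74, 3.77, 3.76 and 3.63 on the differentiated KD1 arrays, against 7.04 and 7.15 on the differentiated scrambled arrays, 3.30 and 3.38 in KD1 ESCs, and 3.38 and 3.47 in scrambled ESCs. Its value was -3.28 ± 0.14 (SE, adjusted p = 1.46e-06). Foxc2 passed the intensity filter (log2 4.55) through the differentiated scrambled arrays alone and read below it in every other group. Its p-value is therefore not separate support. The exception was Tbx20, a cardiac T-box factor, gained at 1.31 ± 0.19 (SE). Tbx20 passed the filter through the differentiated KD1 arrays alone, so its call is not separate support. Crispld2, a secreted protein expressed in mesenchyme, and Hapln1, a hyaluronan link protein, were lost at -3.57 ± 0.37 and -2.96 ± 0.25 (SE). Hapln1, like Foxc2, passed the filter through the differentiated scrambled arrays alone.

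Of 25 tested genes of retinoic acid synthesis, breakdown and response, 12 were called below 0 and 1, Rbp4, above. Over all tested genes the shares were 8.35% and 10.3%. The list's median was -0.81. Nr2f1, the orphan receptor COUP-TFI, read 5.13, 4.70, 4.88 and 4.91 on the differentiated KD1 arrays, against 7.98 and 8.11 on the differentiated scrambled arrays, 3.87 and 3.58 in KD1 ESCs, and 3.81 and 3.82 in scrambled ESCs. It rose in both lines, less in KD1 cells, and its value was -3.05 ± 0.20 (SE, adjusted p = 1.54e-05). Nr2f2, Meis2 and Crabp2 also rose less in KD1 cells, at -2.11 ± 0.26, -2.09 ± 0.26 and -1.84 ± 0.42 (SE), though Crabp2 lost its call without KD1 ESC replicate 1 (adjusted p = 0.0563) or differentiated scrambled replicate 1 (adjusted p = 0.0586).

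Crabp1, a cytoplasmic retinoic acid binding protein, fell in KD1 cells alone. It read 6.52, 6.62, 6.55 and 6.63 on the differentiated KD1 arrays, against 9.92 and 9.04 on the differentiated scrambled arrays, 8.78 and 8.36 in KD1 ESCs, and 9.34 and 8.92 in scrambled ESCs. Its value was -2.34 ± 0.33 (SE, adjusted p = 0.00102).

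Some members of the list had no called value, and those named here were picked after their values were seen. Rarb, a retinoic acid receptor gene that retinoic acid itself switches on, rose by 4.95 in KD1 cells and 4.57 in scrambled cells, with a difference of 0.38 ± 0.37 (SE, adjusted p = 0.51). Cyp26b1, which breaks down retinoic acid, rose by 2.96 in KD1 cells and 2.73 in scrambled cells. Stra6, a retinol receptor, rose by 3.13 in KD1 cells and 3.75 in scrambled cells. Stra8, by contrast, was named by rule and had a called value. It rose in both lines, less in KD1 cells (-1.25 ± 0.24, SE). Cyp26a1, which also breaks down retinoic acid, rose by 7.68 in KD1 cells and 3.79 in scrambled cells, and its value of 3.90 ± 1.31 (SE) was not past the threshold (adjusted p = 0.0629). The scrambled ESC arrays disagreed for it. Without replicate 1 the rise in scrambled cells was 6.04 and the value 1.64 (adjusted p = 0.00125), and without replicate 2 the value was 6.15 (adjusted p = 1.17e-06). For Stra6, not called with all arrays, the value was -1.15 without scrambled ESC replicate 1 (adjusted p = 0.042).

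Hox genes, the positional regulators that retinoic acid induces, had 27 tested members. Of these, 17 were called below 0 and 1, Hoxc13, above, against 8.35% and 10.3% of all tested genes, with a median of -0.92. The median change on differentiation was 0.60 in KD1 cells and 1.64 in scrambled cells. Hoxc5 read 5.80, 4.93, 5.10 and 5.57 on the differentiated KD1 arrays, against a mean of 8.32 ± 0.46 (SD, n = 2) on the differentiated scrambled arrays, 3.87 and 3.76 in KD1 ESCs, and 3.61 and 3.72 in scrambled ESCs. It rose in both lines, less in KD1 cells, and its value was -3.12 ± 0.37 (SE, adjusted p = 0.00034). Hoxb5 and Hoxc8 had values of -1.98 ± 0.27 and -1.87 ± 0.33 (SE). Without the differentiated scrambled arrays Hoxb5 would not have passed the intensity filter, so its call is not separate support. Hoxc4, at -2.32 ± 0.68 (SE), read 8.59 and 6.39 on the 2 differentiated scrambled arrays, and without replicate 1 its value was -1.22. Its adjusted p of 0.0382 ran from 0.000376 to 0.112 when 1 array was left out.

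Of 25 tested neural genes, 11 were called below 0 and 1 above, against 8.35% and 10.3% of all tested genes. The list's median was -0.69, or -0.48 without scrambled ESC replicate 1. Ncam1, a neural adhesion molecule, was reversed at -2.60 ± 0.24 (SE), rising in scrambled cells and falling in KD1 cells. Pax6, a neural progenitor regulator, was lost at -1.72 ± 0.42 (SE), or -1.11 without scrambled ESC replicate 1, and its call was lost without any of 3 other arrays (adjusted p = 0.0524 to 0.0669). The exception was Nefl, a neurofilament gene, which rose by 1.78 in KD1 cells and fell by 1.05 in scrambled cells. Nefl read 7.10 to 7.78 on the differentiated KD1 arrays, against 5.38 and 5.24 on the differentiated scrambled arrays.

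**Figure D5:**
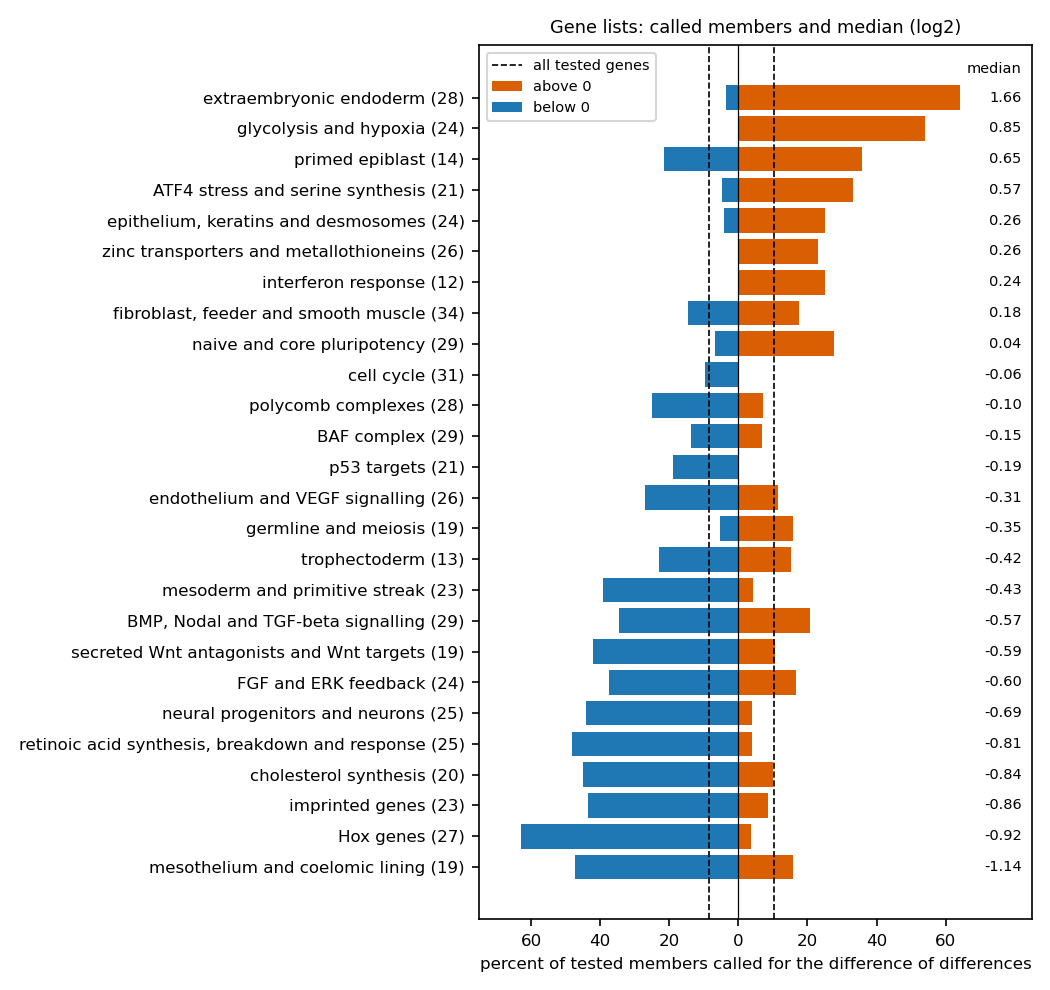
For 26 gene lists, bars give the percent of tested members (their number in brackets) with a called difference of differences above 0 (orange, right) or below 0 (blue, left), with the list's median at the right edge. Dashed lines give the shares over all 12905 tested genes, 10.3% and 8.35%; the endoderm list has the highest median, 1.66, and the mesothelium list the lowest, -1.14.

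Several imprinted growth genes were induced less in KD1 cells. Dlk1, a Notch-like protein from the paternal chromosome, read 7.75, 7.22, 7.08 and 7.70 on the differentiated KD1 arrays, against 11.36 and 11.68 on the differentiated scrambled arrays, 6.28 and 6.11 in KD1 ESCs, and 6.09 and 6.08 in scrambled ESCs. It rose 2.36-fold in KD1 cells and 43.3-fold in scrambled cells, for a value of -4.20 ± 0.29 (SE, adjusted p = 1.89e-05). Plagl1, a zinc finger regulator, and Cdkn1c, a cell cycle inhibitor, had values of -3.20 ± 0.28 and -1.78 ± 0.38 (SE), and Igf2, a growth factor, -1.26 ± 0.34 (SE). Igf2 lost its call without KD1 ESC replicate 1, scrambled ESC replicate 2 or differentiated scrambled replicate 2 (adjusted p = 0.0825 to 0.11). Of 23 tested imprinted genes, 10 were called below 0 and 2 above, against 8.35% and 10.3% of all tested genes, with a median of -0.86. Meg3, the maternal partner of Dlk1, differed between the lines in both states, by 2.85 after differentiation and 3.34 in ESCs, and its value of -0.49 ± 0.23 (SE) was not past the threshold.

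Glycolysis and hypoxia genes moved the other way, in a manner that the reversed class captured. Of 24 tested members, 13 were called above 0 and none below, against 10.3% and 8.35% of all tested genes, with a median of 0.85. Of the 13, 7 were reversed, falling in scrambled cells and rising in KD1 cells. Epas1, the hypoxia-inducible factor HIF2 alpha, read 9.91, 9.95, 10.11 and 9.81 on the differentiated KD1 arrays, against 5.35 and 5.43 on the differentiated scrambled arrays. It read 7.29 and 6.97 in KD1 ESCs and 6.37 and 6.15 in scrambled ESCs. The groups did not overlap, and the value was 3.68 ± 0.19 (SE, adjusted p = 2.53e-06).

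Bnip3, a mitophagy receptor, and Pfkl, a phosphofructokinase, had values of 2.31 ± 0.31 and 2.06 ± 0.17 (SE). Ldha, lactate dehydrogenase, was lost at 1.11 ± 0.14 (SE), since it fell by 0.95 in scrambled cells alone. Hif1a, the other main hypoxia-inducible factor, had a value of 0.37 ± 0.16 (SE), not past the threshold. The list's median ranged from 0.65 without KD1 ESC replicate 2 to 1.03 without scrambled ESC replicate 2.

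Of 20 tested cholesterol synthesis genes, 9 were called below 0, 2 above and 9 not called, with a median of -0.84. Over all tested genes 8.35% were called below 0 and 10.3% above. Msmo1 and Idi1, enzymes of the pathway, had values of -1.84 ± 0.27 and -1.72 ± 0.28 (SE), and Idi1 fell in KD1 cells by 1.80 with no called change in scrambled cells. Insig1, which holds the pathway's transcription factor in check, went the other way, at 2.04 ± 0.25 (SE). Its signal was 11.46 to 12.02 on the differentiated KD1 arrays, against 9.96 and 9.69 on the differentiated scrambled arrays.

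Signalling genes were divided. Among 29 tested genes of BMP, Nodal and TGF-beta signalling, 6 were called above 0 and 10 below, with a median of -0.57. Over all tested genes the shares were 10.3% and 8.35%. Bmp4 read 7.69, 7.47, 7.76 and 8.29 on the differentiated KD1 arrays, against a mean of 8.72 ± 0.32 (SD, n = 2) on the differentiated scrambled arrays, and 10.27 and 9.96 in KD1 ESCs, against 8.81 and 7.86 in scrambled ESCs. KD1 cells were higher in ESCs and lower after differentiation, and the value was -2.70 ± 0.42 (SE, adjusted p = 0.00165). Id2 and Id3, targets of BMP signals, rose in scrambled cells alone and were lost, at -1.90 ± 0.44 and -1.95 ± 0.45 (SE), and without KD1 ESC replicate 1 or differentiated scrambled replicate 1 both missed the threshold (adjusted p = 0.052 to 0.059). Tgfbi, a matrix protein induced by TGF-beta, was reversed at -3.55 ± 0.45 (SE).

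For FGF signalling, 4 of 24 tested genes were called above 0 and 9 below, against 10.3% and 8.35% of all tested genes. The list's median was -0.60. Spry4, a feedback inhibitor, had a value of -2.18 ± 0.33 (SE). Its differentiated levels were alike, 4.71 to 5.41 in KD1 cells and 4.72 and 5.42 in scrambled cells. In ESCs it read 9.54 and 9.71 in KD1 cells, against 7.41 and 7.42 in scrambled cells, so the gap lay in the starting cells. Klb, the co-receptor beta-Klotho, was stronger at 2.95 ± 0.28 (SE), and Fgfr4 was gained at 1.63 ± 0.29 (SE).

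A smaller set of called genes owed its value to the ESCs in this way. Klhl4 read 3.18 to 3.29 on the differentiated KD1 arrays, 3.18 and 3.12 on the differentiated scrambled arrays and 3.19 and 3.21 in KD1 ESCs, against 6.09 and 5.15 in scrambled ESCs. Its value of 2.49 ± 0.30 (SE) came from a fall in scrambled cells with no called change in KD1 cells, which were already at the low level. Klhl4 read above the intensity filter (log2 4.55) on the scrambled ESC arrays alone. Pim2, a serine kinase, had a similar layout, with 6.87 and 7.15 in KD1 ESCs against 8.78 and 9.34 in scrambled ESCs and a value of 2.42 ± 0.23 (SE). Igsf21 had the mirror image: 7.40 and 6.20 in KD1 ESCs against 4.39 and 4.89 in scrambled ESCs, 4.05 to 4.61 in differentiated KD1 cells and 4.33 and 4.56 in differentiated scrambled cells.

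Other genes of the lost class fell in scrambled cells with no called change in KD1 cells. Kit, the stem cell factor receptor, read 9.91, 10.52, 10.84 and 10.51 on the differentiated KD1 arrays, against 6.72 and 6.12 on the differentiated scrambled arrays, and 10.26 and 10.34 in KD1 ESCs, against 9.68 and 8.62 in scrambled ESCs. It fell in scrambled cells by 2.73 and had no called change in KD1 cells (0.14 ± 0.30, SE), for a value of 2.87 ± 0.46 (SE, adjusted p = 0.00205). Cd9, a tetraspanin of the surface of ESCs, followed the same layout with 2.49 ± 0.26 (SE). Apela, a peptide ligand, had a value of 3.20 ± 0.42 (SE), but there the lines differed in both states, with KD1 cells higher by 1.87 after differentiation and a KD1 minus scrambled difference of -1.33 in ESCs.

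Pluripotency genes fell in both lines. Across 29 tested pluripotency genes the median change was -3.18 in KD1 cells and -3.25 in scrambled cells. The median difference of differences was 0.04, or -0.24 without scrambled ESC replicate 1. With all arrays, 8 were called above 0 and 2 below, against 10.3% and 8.35% of all tested genes. Pou5f1 fell by 3.84 in KD1 cells and by 4.52 in scrambled cells (difference 0.68 ± 0.31, SE, adjusted p = 0.153). The exceptions included Fbxo15, which fell less in KD1 cells (2.45 ± 0.39, SE), and Sall4, which rose by 0.34 in KD1 cells and fell by 1.35 in scrambled cells. Klf4 and Klf5 fell in scrambled cells alone, with values of 1.51 ± 0.46 and 1.57 ± 0.43 (SE). Both calls were lost without any of several arrays, scrambled ESC replicate 1 among them, where the values were 0.83 and 1.29. Sox2 fell further in KD1 cells (-2.09 ± 0.60, SE, adjusted p = 0.0356), at -1.38 from differentiated KD1 replicates 3 and 4 alone. Leaving out either array of any of the 3 groups with 2 arrays left Sox2 short of the threshold, with an adjusted p of 0.0717 to 0.117.

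BAF subunits other than Smarcd1 mostly had no called value. Of 29 tested, 2 were called above 0 and 4, Smarcd1 included, below, with a median of -0.15. Over all tested genes the shares were 10.3% and 8.35%, and counts this near them are no result about BAF subunits. Smarca2, the BRM ATPase, rose in both lines and further in KD1 cells, reading 7.96, 8.01, 7.88 and 8.17 on the differentiated KD1 arrays, against 5.83 and 6.31 on the differentiated scrambled arrays, 4.23 and 3.86 in KD1 ESCs, and 4.44 and 4.07 in scrambled ESCs. Its value was 2.15 ± 0.26 (SE, adjusted p = 0.000381). Smarcd2 and Smarcd3, the paralogs of Smarcd1, had values of -0.20 ± 0.18 and 0.10 ± 0.44 (SE), neither past the threshold. Bcl11a and Bcl7a were below 0, at -1.61 ± 0.25 and -1.23 ± 0.18 (SE).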

How the data were processed

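Expression was measured on Affymetrix arrays, and the deposited values are log2 signals per probe set made by the authors with RMA, per the submitters' processing notes. Nothing in the labels names the chip software or its settings. The table held 35556 probe sets. Of these, 21789 had exactly 1 gene symbol in the platform annotation, 1621 had several and 12146 were not listed there. Where a gene had more than 1 probe set (999 genes), only its brightest by mean was kept, which gave 19938 genes. Genes above the 40th percentile of all values (log2 4.55) on at least 2 arrays were tested, 12905 in all. A gene could thus pass through 1 group alone, as Foxc2, Upk3b, Hapln1, Angpt1, Klhl4 and Tbx20 did, among others. Frzb and Hoxb5 were above the threshold on a single array outside the group where they were high, so they too passed only because of that group. Such genes also count in the list totals. The precision is limited by the number of arrays, 4 in one group and 2 in each of the others.

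A linear model with 1 mean per group was fitted to the 10 arrays with limma 3.58.1 in R 4.3.3 (lmFit, contrasts and eBayes; 6 residual degrees of freedom), and p-values were adjusted over all tested genes by the Benjamini-Hochberg method. Standard errors are those of this fit. On simulated data for the difference of differences, calls were made for 2 of 50 genes given a difference of 0.5 log2 units, 27 of 50 given 1, 43 of 50 given 1.5 and 47 of 50 given 2. Of 12705 genes given none, 6 were called. A small difference could therefore be missed. The simulation changed a far smaller share of genes than the 18.6% called in the data. The Benjamini-Hochberg cut-off depends on that share, so these rates do not give the sensitivity for the real data.

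The comparison, its marker genes and the gene lists were chosen with earlier results of these data known, so a list's count is a description. Genes were named by rule: Smarcd1, the markers, the 5 largest values of each class and direction, the 10 largest values in each direction, and up to 4 called members of each list, leaving out predicted genes, small RNAs and olfactory receptors. Other genes, among them Lama1, Col4a1, Col4a2, Gata6, Rarb and the exceptions within a list, were named after their values were seen. Of these, Lama1, Col4a1 and Col4a2 were carried through all alternatives and the rest only through leaving out each array. Alternatives covered normalization, filters, probe set choice, a replicate block, array weights, thresholds and leaving out arrays. Promoter windows of 300 bases around a gene's start are from RefSeq, GRCm38.p6.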

Additional observations from a re-analysis of the deposited data

Results flagged for a closer look

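Among 133 named genes, 4 had a single differentiated KD1 array far from the other 3 on the log2 scale, where chance gives about 1 in 20. The count is below that rate, so these genes are listed as a description only. B4galnt4 read 5.48 on that array and 5.31 to 5.34 on the others, and Notum, which encodes a Wnt deacylase, read 5.80 where the lowest of the others was 5.13. Tdrd5, a germline gene, read 6.93 and 6.34 to 6.37, and Bnip3 read 9.83 and 9.35 to 9.40.

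The change on differentiation differed between KD1 and scrambled cells, by the test of the difference itself, for 2402 genes. Among the named genes, the following had called changes of opposite sign in the lines. Slc39a8 (5.11), Car2 (4.28), Serpinb6c (3.80), Epas1 (3.68), Retreg1 (3.34), Nefl (2.83), Ccn2 (2.41), Bnip3 (2.31), Pfkl (2.06) and Insig1 (2.04) rose in KD1 cells and fell in scrambled cells. Sfrp1 (-4.36), Tgfbi (-3.55), Lrrn1 (-3.12), Myrf (-2.97), Slit2 (-2.93), Ncam1 (-2.60), Mmp2 (-2.25), Ccnd1 (-1.49) and Bcl7a (-1.23) fell in KD1 cells and rose in scrambled cells. Values are differences of differences in log2 units. Lrrn1, a leucine-rich repeat membrane protein, read 4.13 and 6.02 on the scrambled ESC arrays, so its value rests on a wide spread there.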

How the results depend on the processing

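With the 2 KD2 arrays in the fit, 1030 genes had a called difference of differences, all among the 2402, with 2946 called between the lines after differentiation, 303 in ESCs, and 358 gained, 253 lost and 79 reversed. At an adjusted p of 0.01 these counts were 1075, 3212, 385, 379, 286 and 69. Asking for at least 2-fold left 1151 genes, 306 gained and 229 lost, and sorting by a change of 1 log2 unit left 18 reversed and put 40.3% of genes in the same class. Leaving out 1 array gave 1527 to 2386 called genes, 6811 to 8348 for differentiation of KD1 cells, 5874 to 7051 for scrambled cells, 3321 to 4916 between the lines after differentiation and 450 to 1180 in ESCs. It gave 426 to 708 gained, 329 to 532 lost and 125 to 207 reversed. The lowest count of called genes, 1527, came without KD1 ESC replicate 2, and it was 1580 without differentiated scrambled replicate 2. With the replicate number as a block, 1972 genes were called, 1732 of them shared. Differentiated KD1 replicates 3 and 4 have no partners and add nothing to that value. The numbers 1 and 2 are not said to pair samples. After each gene's group mean was subtracted, same-numbered arrays of different groups correlated at -0.08 to 0.24. Other normalizations moved the share of genes above 0 between 49.4% and 63.4%, against 55.2%. None of the 133 genes carried through all alternatives changed sign, and 105 of them kept their call in every setting run. Gata6, Cyp26b1, Smarcd3 and Vegfa were not called and were run only with arrays left out. Each of them changed sign when a single array was left out. With only brighter genes kept (60th percentile), list medians were -1.65 for mesoderm, 0.02 for endothelium and 0.03 for germline genes. Genes such as Hoxc4, Sox2, Krt8 and Krt18 did not keep their call in every setting. Small differences are limited by 2 arrays in 3 of the groups.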

Other observations

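Matrix and mesenchymal genes were divided. Of 34 tested fibroblast, feeder and smooth muscle genes, 6 were above 0 and 5 below, with a median of 0.18, or -0.25 without KD1 ESC replicate 2. Over all tested genes, 10.3% were called above 0 and 8.35% below, and counts near those shares are no result about a list. Snai1, a regulator of epithelial to mesenchymal transition that parietal endoderm also expresses, read 8.70, 8.73, 9.15 and 8.85 on the differentiated KD1 arrays, against 6.48 and 6.53 on the differentiated scrambled arrays, and 5.85 and 5.65 in KD1 ESCs, against 6.22 and 5.93 in scrambled ESCs. Its value was 2.68 ± 0.22 (SE, adjusted p = 4.26e-05). Timp3, an inhibitor of matrix proteases, was stronger at 2.04 ± 0.27 (SE), while the gelatinase Mmp2 had -2.25 ± 0.46 (SE).

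For every list in this paragraph, the shares over all tested genes were 10.3% called above 0 and 8.35% below. Counts near those shares are no result about a list. Among Wnt genes, 2 of 19 were above 0 and 8 below, with a median of -0.59, and Nkd1, a feedback inhibitor of Wnt signalling, was lost at -2.92 ± 0.24 (SE). Epithelial genes had 6 of 24 above 0 and 1 below (median 0.26), and Esrp1, an epithelial splicing regulator, fell less in KD1 cells (2.05 ± 0.34, SE). Primed epiblast genes had 5 of 14 above 0 and 3 below (median 0.65). Trophectoderm genes had 2 of 13 above 0 and 3 below (median -0.42, or -0.22 without scrambled ESC replicate 2), with Gata3 at -1.34 ± 0.21 (SE). Stress genes of the ATF4 program had 7 of 21 above 0 and 1 below (median 0.57, or 0.39 without KD1 ESC replicate 2). Germline genes had 3 of 19 above 0 and 1 below (median -0.35, or -0.19 from differentiated KD1 replicates 1 and 2 and -0.47 from replicates 3 and 4), and interferon genes 3 of 12 above 0 and none below (median 0.24). Polycomb genes had 2 of 28 above 0 and 7 below (median -0.10, or -0.23 without KD1 ESC replicate 2), with Jarid2 and Mtf2, subunits of PRC2 complexes, falling further in KD1 cells at -0.90 ± 0.16 and -0.93 ± 0.20 (SE). Cell cycle genes had none of 31 above 0 and 3 below (median -0.06), and p53 targets none of 21 above 0 and 4 below (median -0.19).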
